A study of Homo sapiens with 12 samples.

Results

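The SOX genes described here are transcription factors that share a high mobility group (HMG) box, the DNA-binding domain first seen in the sex-determining factor SRY. They were chosen by name: 10 SOX genes were listed and looked up in 3 tables of all measured genes. Of these, 6 (SOX4, SOX7, SOX9, SOX12, SOX13 and SOX18) had a row among the 12756 genes of each table, while SOX2, SOX5, SOX6 and SOX11 had none and were not analysed here. The tables come from polyadenylated RNA of HCT116, an established human colorectal carcinoma line, harvested 48 hours after seeding. There were 12 libraries in 4 groups of 3 labelled replicates: the parental line, an AGO2 knockout, an ANKRD52 knockout, and a double knockout of ANKRD52 and CSNK1A1. Each group is named by its genotype only, and the labels give neither how the knockouts were made nor whether a group is a single clone, so a property of a clone and an effect of the knockout cannot be told apart. No agent or further allele is labelled for any group. AGO2 is an Argonaute, which holds a microRNA and binds the messages it pairs with. ANKRD52 regulates the phosphatase PP6, and CSNK1A1 is casein kinase 1 alpha. The study's title places them in a phosphorylation cycle of Argonaute that promotes microRNA silencing.

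SOX proteins bend DNA at short AT-rich sites and act with partner factors, and their groups (B1, C, D, E, F) are defined by the sequence of the HMG box. In the intestine SOX9 (group E) marks crypt cells and is a known target of Wnt signalling, and it also acts back on that pathway. SOX4 and SOX12 (group C, with SOX11) are activators of progenitor programmes, and SOX4 is often studied in TGF-beta responses and in tumours. SOX13 (group D) lacks an activation domain of its own and can bind TCF factors, and SOX7 and SOX18 (group F) are best known from blood vessel development.

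Because the study concerns microRNA silencing, seed matches in the 3' untranslated regions (UTRs) of the SOX genes are shown first. A seed match is a stretch complementary to bases 2 to 8 of a microRNA. Of 22 microRNAs on a list drawn up for this purpose, 20 were searched with their RefSeq sequences (GRCh38.p14), and miR-124-3p and miR-130a-3p were not used here. The list mixes families known to be abundant in epithelial cells with microRNAs reported to act on SOX genes, so it leans towards finding matches in them. The longest annotated 3' UTR of each gene (GENCODE 29) was searched.

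SOX4 (3' UTR of 2660 bases) had matches to 10 of the 20 microRNAs and SOX9 (2033 bases) to 9. Among genes with 3' UTRs within 20% of the same length, the median was 4 for the length of SOX4 and 3 for that of SOX9, and 0.733% and 0.408% of them had as many. SOX12 matched 5 microRNAs, SOX7 3, SOX13 2 and SOX18, with a 3' UTR of 584 bases, 0. For SOX12, SOX7 and SOX13, 61.2%, 66.1% and 78.1% of 3' UTRs of like length had as many. The GC content of these 3' UTRs was 41.8% for SOX4 and 35.4% for SOX9, against 57.2% for SOX12.

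Matches to miR-30a-5p and to miR-138-5p were each found in 4 of the 6 genes. For miR-30a-5p they included SOX4, SOX9 and SOX12, each with 1 match extended by an A opposite base 1 of the microRNA. A match to its seed occurred in 18.7% of all 11389 3' UTRs, and in 21.3% to 30.7% of those of like length to these 3 genes. The mature microRNA is shown with its seed in capitals, followed by the 3 sites with the match and its A in capitals, read from GENCODE 29 transcripts and placed on the plus strand of GRCh38.
hsa-miR-30a-5p: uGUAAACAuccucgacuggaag
SOX4, chr6:21597812-21597835: taatttctccaTGTTTACActtca
SOX9, chr17:72126375-72126398: ttgtatattatTGTTTACAataaa
SOX12, chr20:326900-326923: cccaaaccagcTGTTTACAtacag

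SOX4 had 4 matches to miR-129-5p, a number reached by 0.122% of 3' UTRs of like length. The extended match among them, shown here, runs into further A bases. None of the other 5 genes matched this microRNA. The same held for miR-132-3p and miR-92a-3p, to each of which SOX4 had 2 matches.
hsa-miR-129-5p: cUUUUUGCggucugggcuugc
SOX4, chr6:21596257-21596280: tgttgttgatgGCAAAAAAaaaaa

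A match is a description of the letters and not a measured site, and the levels of these microRNAs were not measured in the tables. None of the 6 genes had a match to miR-200b-3p, miR-21-5p, miR-26a-5p, miR-335-5p or miR-126-3p in the window searched.

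**Figure D1:**
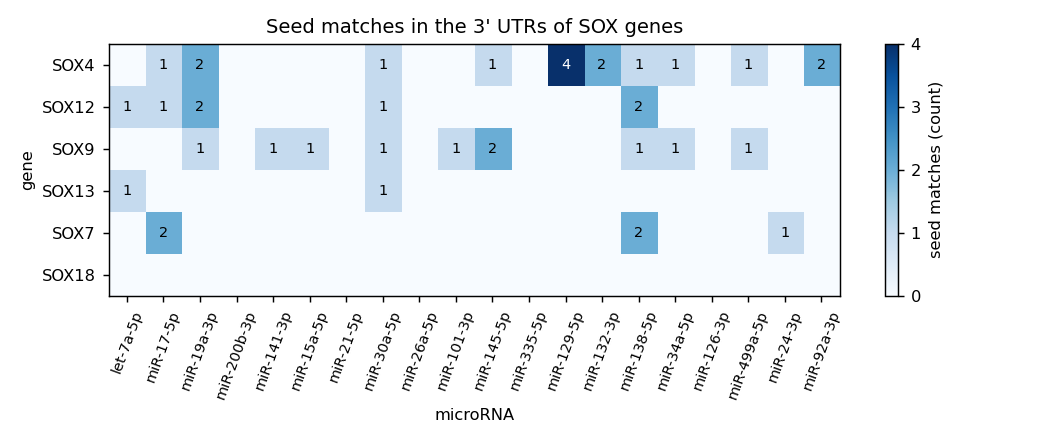
Number of seed matches in the 3' UTR of each measured SOX gene (rows) for 20 microRNAs (columns), with empty cells at 0. SOX4 and SOX9 have matches to 10 and 9 microRNAs, and the SOX18 row is empty.

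The tables hold the authors' log2 fold change, mean log2 CPM (a read count scaled to library size) and test for each knockout against the parental line, without values per library. Group levels were therefore worked out from a gene's mean CPM together with its 3 fold changes, taking the 4 groups to weigh equally. Such levels have no error of their own. The depth of each library is unknown. Whether replicates came from separate cultures is not labelled, and the authors' p-values then cover only the spread among these libraries, which could be technical.

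SOX4 and SOX9 were among the more abundant messages of HCT116. By mean CPM in the authors' deposited tables SOX4 stood above 98.7% of genes and SOX9 above 96.0%, counting each gene itself. SOX12 and SOX13 lay at the 70.8th and 59.0th percentiles, SOX18 at the 10.2th and SOX7 at the 3.36th. The implied level of SOX4 was 560.7 CPM in parental cells, 271.6 in the AGO2 knockout, 634.1 with ANKRD52 lost and 946.8 in the double knockout. SOX9 went from 191.8 CPM in parental cells and 210.0 in the AGO2 knockout to 314.6 with ANKRD52 lost and 569.2 in the double knockout. By implied level SOX4 was thus lowest in the AGO2 knockout, SOX9 in parental cells, and both were highest in the double knockout. Not every step of these orders passed a test. SOX9 in the AGO2 knockout against parental cells did not (adjusted p = 0.754, authors' edgeR test). Nor did SOX4 in the double against the ANKRD52 knockout (adjusted p = 0.118, by the test of differences given below).

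SOX12 had implied levels of 88.8 CPM in parental cells, 79.4 in the AGO2 knockout, 70.9 with ANKRD52 lost and 42.4 in the double knockout. SOX13 stayed between 34.4 and 37.6 CPM in the first 3 groups and reached 78.3 CPM in the double knockout. SOX18 ranged from 2.17 CPM in the AGO2 knockout to 3.64 CPM in the ANKRD52 knockout, and SOX7 from 0.926 CPM in the double knockout to 1.60 CPM in parental cells.

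Levels per length allow the genes to be ordered. Per kb of annotated exons the implied parental levels were 95.8 CPM for SOX4, 48.7 for SOX9, 19.2 for SOX12, 10.4 for SOX13, 1.76 for SOX18 and 0.498 for SOX7. In the double knockout SOX4 and SOX9 came close to each other, at 162 and 145 CPM per kb. There SOX13 (21.8 CPM per kb) stood above SOX12 (9.16), the reverse of their order in the other 3 groups. Without values per library it was not tested which neighbours in these orders differ beyond their spread.

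**Figure D2:**
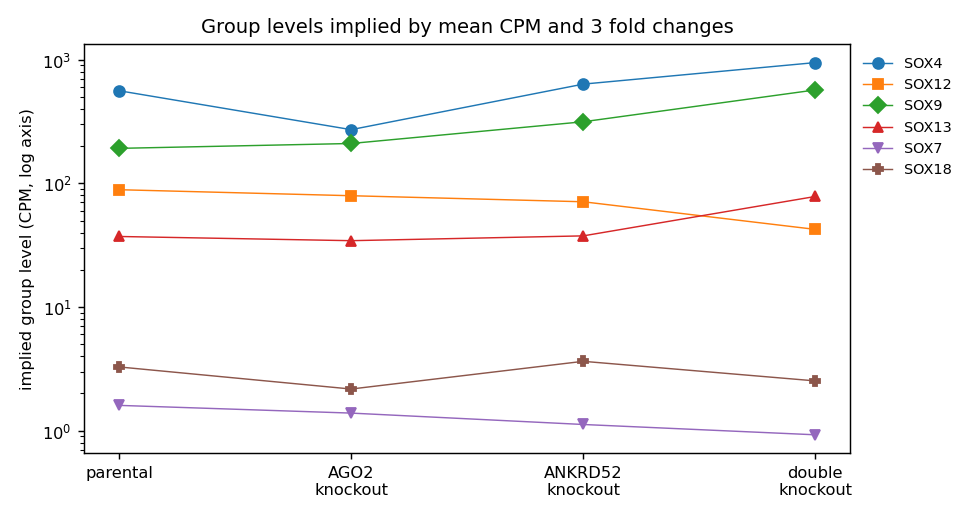
Implied group level in CPM (log axis) of the 6 measured SOX genes in the 4 groups, where lines only join the points of a gene and levels carry no error. SOX9 rises from 191.8 CPM in parental cells to 569.2 CPM in the double knockout, and the lines of SOX12 and SOX13 cross there.

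The first comparison sets the AGO2 knockout against parental cells. SOX4, the most abundant of these genes, fell 2.06-fold, and the other 5 did not pass the test. In the authors' deposited table the log2 fold change of SOX4 was -1.05 (approximate standard error 0.30, adjusted p = 0.0166), lower than all but 0.408% of genes. This is 1 of 6 SOX genes called, against 6.10% of all genes tested, with 3.38% higher and 2.72% lower. SOX18 had -0.59 (unadjusted p = 0.0322, adjusted p = 0.182) in the authors' deposited table. SOX7 (-0.21), SOX12 (-0.16), SOX13 (-0.11) and SOX9 (0.13) had adjusted p-values from 0.736 to 0.782 in the same authors' deposited table. The interval of SOX9, the crypt factor, ran from -0.25 to 0.51 on the log2 scale, computed from the authors' deposited table. The median over the 6 genes was -0.18, beside 0.00126 over all genes.

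The spread behind SOX4 was wide for so abundant a gene. Its approximate standard error of 0.30, the median over the comparisons, was larger than that of 97.4% of genes of like mean expression, whose median was 0.102. The errors of SOX12 (0.23), SOX9 (0.20) and SOX13 (0.19) were also wide, at the 95.5th, 91.8th and 88.4th percentiles of such genes. Those of SOX18 and SOX7 lay at the 79.3th and 47.3th. The likelihood ratio of SOX4 in the AGO2 knockout did not pass when read against the F distribution (1 and 8 degrees of freedom, adjusted p = 0.282, with 0.0160 to 1 over 6 alternatives). With that setting 0 of all 12756 genes passed in this comparison, so it does not single out SOX4.

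In the libraries labelled ANKRD52 knockout SOX9 was 1.64-fold higher than in parental cells, and no other SOX gene passed. The log2 fold change of SOX9 was 0.71 (approximate standard error 0.20, adjusted p = 0.00504) in the authors' deposited table, higher than that of 96.6% of genes. This is 1 of 6, against 13.7% of all genes tested, with 7.62% higher and 6.04% lower. SOX7 (-0.51, adjusted p = 0.252) and SOX12 (-0.32, adjusted p = 0.379) had negative values that did not pass in the authors' deposited table. SOX4 had 0.18, SOX18 0.15 and SOX13 0.02 there, with adjusted p-values of 0.760, 0.780 and 0.973 in the authors' deposited table. For SOX13 the interval, from -0.35 to 0.39, leaves room for changes of up to about that size. The median over the 6 genes was 0.08, beside 0.000507 over all genes. The call of SOX9 was lost with the F distribution (adjusted p = 0.125, with 0.00488 to 1 over 6 alternatives). With that setting only 3 of all 12756 genes passed in this comparison, so it does not single out SOX9.

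In the double knockout 5 of the 6 genes passed, 3 higher and 2 lower, against 43.0% of all genes called in this comparison (22.9% higher and 20.1% lower). SOX9 rose 2.97-fold, SOX13 2.11-fold and SOX4 1.69-fold, while SOX12 fell 2.09-fold and SOX7 1.73-fold in the authors' deposited table. The number of SOX genes called is read only against that background. The median over the 6 genes was 0.19, beside 0.01 over all genes.

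By group, the E member SOX9 had the largest value, a log2 fold change of 1.57 (approximate standard error 0.20, adjusted p = 1.06e-13) in the authors' deposited table. The D member SOX13 followed with 1.08 (approximate standard error 0.19, adjusted p = 1.84e-07) in the authors' deposited table. The C members moved in opposite directions: SOX4 had 0.76 (approximate standard error 0.30, adjusted p = 0.0283) and SOX12 had -1.07 (0.23, 2.91e-05) in the authors' deposited table. The F members were low in level, with SOX7 at -0.79 (adjusted p = 0.0248) and SOX18 at -0.38 (adjusted p = 0.272) in the authors' deposited table. SOX12 was lower than all but 1.89% of genes, and SOX9 higher than 96.3%.

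With the F distribution SOX9 (adjusted p = 0.00157), SOX13 (0.00595) and SOX12 (0.0128) stayed past the threshold. SOX4 and SOX7 did not (adjusted p = 0.0894 and 0.0843, with 0.0280 to 1 and 0.0224 to 1 over their alternatives).

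**Figure D3:**
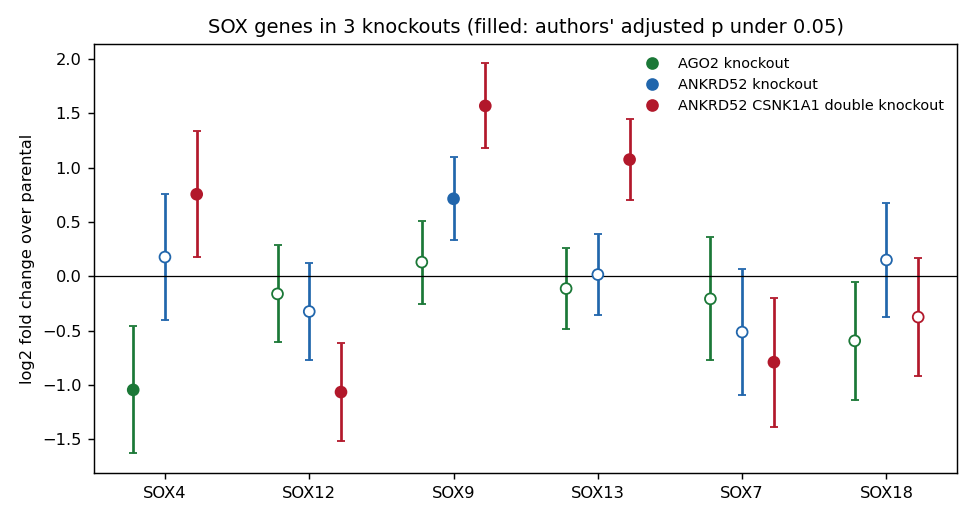
Log2 fold change over parental cells of the 6 SOX genes in the 3 knockouts, from the authors' tables, with approximate 95% intervals as bars and filled points where the authors' adjusted p was under 0.05. SOX4 is filled below 0 in the AGO2 knockout and above 0 in the double knockout, and SOX9 lies at 0.13, 0.71 and 1.57.

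**Figure D4:**
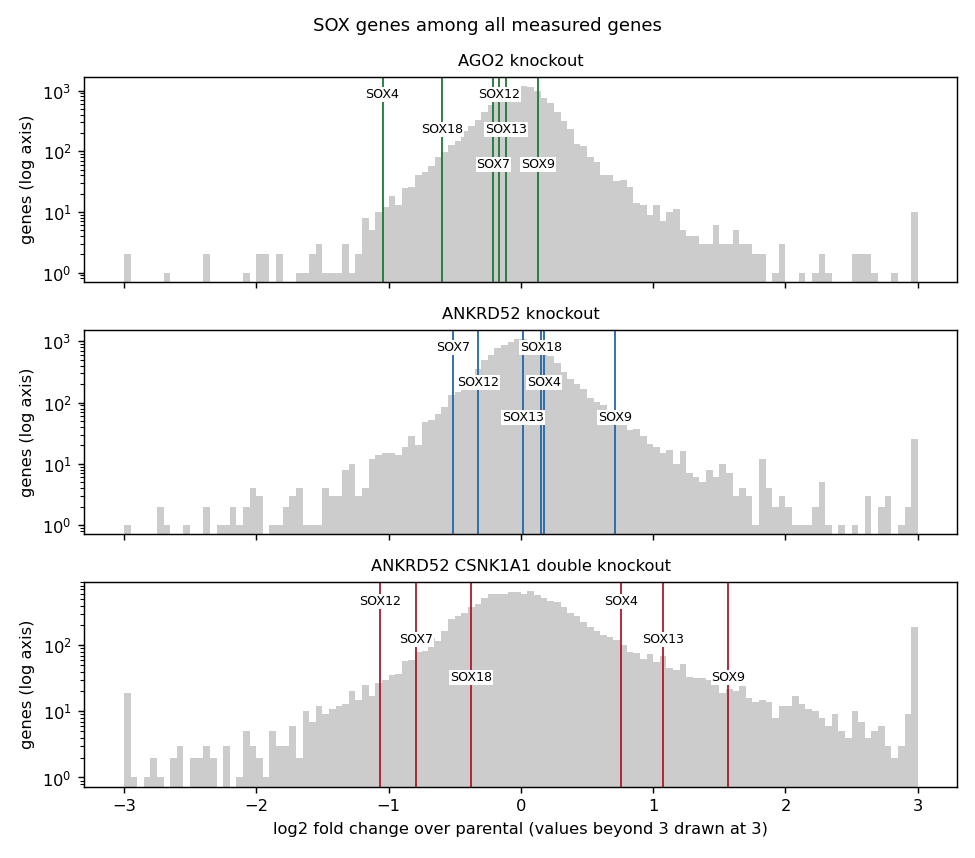
Distribution of the log2 fold changes of all 12756 genes in each knockout (grey, number of genes on a log axis), with vertical lines at the 6 SOX genes. In the AGO2 knockout SOX4 lies at -1.05 in the lower tail, and in the double knockout the 6 lines spread from -1.07 to 1.57.

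The 3 tables share the parental libraries, so the knockouts were also set against each other by the difference of their log2 fold changes, in which the parental level drops out. SOX7, with a mean log2 CPM under 1, was left out of this test, leaving 5 genes.

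The double knockout differs from the ANKRD52 knockout, by label, in the added loss of CSNK1A1. ANKRD52 RNA itself also differed between them, by -0.69 (adjusted p = 8.93e-06 by this test of the difference). The groups thus did not differ in CSNK1A1 alone, and which of these the SOX differences go with was not tested. SOX13 was higher by 1.06 (approximate standard error 0.19, adjusted p = 3.16e-07) and SOX9 by 0.86 (0.20, 0.000122), as differences computed from the authors' deposited tables. SOX12 was lower, with -0.74 (0.23, adjusted p = 0.00563) from the authors' deposited tables. This is 3 of 5 genes, against 34.5% of all genes tested (18.1% higher and 16.3% lower). SOX4 had a difference of 0.58 (interval 0.00 to 1.16, adjusted p = 0.118), and SOX18 one of -0.53 (-1.06 to 0.01, 0.123), from the authors' deposited tables. SOX12 lost its call with a t distribution of 8 degrees of freedom (adjusted p = 0.0550) and with a larger variance for the difference (0.102), the range over 5 alternatives being 0.00490 to 0.102. Of all 11876 genes tested, the t distribution left 2466 called and the larger variance 1984, against 4092.

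Against the AGO2 knockout, the double knockout was higher in SOX4 by 1.80, in SOX9 by 1.44 and in SOX13 by 1.19 on the log2 scale, computed from the authors' deposited tables (adjusted p = 2.16e-08, 7.30e-12 and 5.71e-09). SOX12 was lower, at -0.90 (adjusted p = 0.000433), so 4 of 5 genes differed, against 42.6% of all genes tested (21.6% higher and 21.0% lower). SOX18 had 0.22 (interval -0.32 to 0.76). SOX4, which fell in the AGO2 knockout and rose in the double, had the largest of these differences.

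The ANKRD52 and AGO2 knockouts differed in SOX4, higher by 1.22 in the ANKRD52 knockout (approximate standard error 0.30, adjusted p = 0.00171), and in SOX9, higher by 0.58 (0.20, 0.0360), as computed from the authors' deposited tables. This is 2 of 5 genes, against 9.43% of all genes tested (5.52% higher and 3.91% lower). SOX18 had a difference of 0.74 (interval 0.21 to 1.28, adjusted p = 0.0611), while SOX12 and SOX13 had -0.16 (interval -0.61 to 0.28) and 0.13 (-0.24 to 0.50), from the authors' deposited tables. Both calls were lost with a t distribution of 8 degrees of freedom (adjusted p = 0.150 and 0.222) and with the larger variance (0.161 and 0.442), over ranges of 0.00170 to 0.161 for SOX4 and 0.0357 to 0.442 for SOX9. Of all 11876 genes tested, the t distribution left 0 called and the larger variance 94, so these losses are not particular to the SOX genes.

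**Figure D5:**
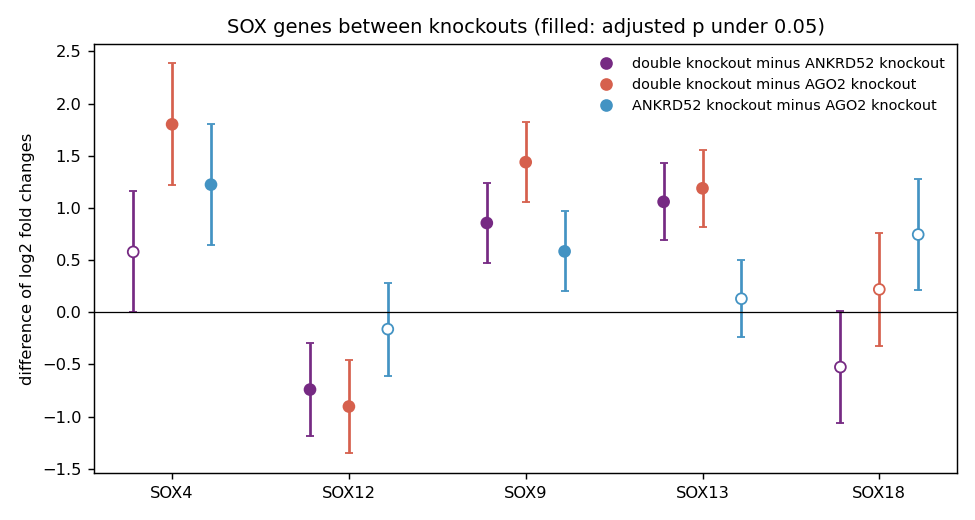
Difference of log2 fold changes between pairs of knockouts for the 5 SOX genes whose mean log2 CPM reached 1, with approximate 95% intervals as bars and filled points where the adjusted p was under 0.05. SOX13 is filled only where the double knockout is part of the pair, and SOX18 is filled in no pair.

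Outside the listed genes, 2 of 9 further SOX genes had a row, SOX8 and SOX30. SOX8, which is of group E like SOX9, rose 2.38-fold in the double knockout (log2 fold change 1.25, adjusted p = 0.000177) in the authors' deposited table. In the AGO2 and ANKRD52 knockouts SOX8 had -0.81 (adjusted p = 0.0839) and -0.59 (0.183), per the authors' deposited tables. Between the double and the ANKRD52 knockout it differed by 1.84 (adjusted p = 1.44e-08), computed from the authors' deposited tables. SOX30, best known from the testis, fell in the AGO2 knockout, with -1.23 (adjusted p = 0.00786) in the authors' deposited table, at a level of about 1.06 CPM in parental cells.

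Of 12 measured partner factors and cofactors of SOX proteins, 7 rose and 1 fell in the double knockout, against 22.9% of all genes higher and 20.1% lower, with a list median of 0.24 beside 0.01 over all genes. TCF7, a Wnt effector, rose 2.42-fold and POU2F1 1.35-fold (adjusted p = 8.57e-32 and 0.000113), and TCF7L2, the main TCF factor of the intestine, fell 2.09-fold (adjusted p = 1.46e-09), in the authors' deposited table. GLI3, a Hedgehog effector, also rose (adjusted p = 3.62e-17 in the authors' deposited table), and no fold is given because its implied parental level was only 0.0568 CPM. In the ANKRD52 knockout 1 of the 12 rose, against 7.62% of all genes, the acetyltransferase EP300 (0.27, adjusted p = 0.0460 in the authors' deposited table), and in the AGO2 knockout 0 passed the authors' edgeR test (1 at an unadjusted p under 0.05). CTNNB1, which encodes beta-catenin, had -0.01, 0.18 and -0.09 in the AGO2, ANKRD52 and double knockouts, per the authors' deposited tables.

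Wnt feedback and stem targets belong to the pathway of which SOX9 is a known target, and they include TCF7 from the partners above. Of 7 measured, 7 rose in the double, 2 in the ANKRD52 and 0 in the AGO2 knockout, against 22.9%, 7.62% and 3.38% of all genes. For the AGO2 knockout the authors' edgeR test also gave 0 at an unadjusted p under 0.05. The list medians were 3.04, 0.73 and -0.01, beside 0.01, 0.000507 and 0.00126 over all genes. In the authors' deposited table for the double knockout the secreted antagonist NOTUM had 6.31 on the log2 scale (adjusted p = 5.48e-14) and the feedback ligase gene ZNRF3 had 2.33 (2.11e-49). In the ANKRD52 knockout, where SOX9 also rose, the 2 that passed were AXIN2 and SP5, while NOTUM (0.76, adjusted p = 0.476) and ZNRF3 (0.05, 0.876) did not, per the authors' deposited table. A link between SOX9 and these genes was not tested.

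Genes reported as targets of SOX9 were mostly cartilage genes without a row, and 4 of 13 were measured. In the double knockout 2 of 4 rose, against 22.9% of all genes, the adhesion gene CEACAM1 (log2 fold change 7.99, adjusted p = 4.18e-105) and the intestinal factor CDX2 (2.67, 1.93e-105), and the list median was 1.24, in the authors' deposited table. The others measured, PRKCA (-0.34, adjusted p = 0.0667) and CLDN7 (-0.20, 0.462), had negative values there that did not pass, so the list did not rise as a whole. SOX9 has been described as a repressor of CDX2. CEACAM1 also rose in the AGO2 knockout (2.64) and in the ANKRD52 knockout (1.84), per the authors' deposited tables. Its implied levels were low, at 0.266 CPM in parental cells, 1.66 and 0.954 in these knockouts and 67.9 in the double. In the ANKRD52 knockout the tight junction gene CLDN7 fell by 1.22, per the authors' deposited tables.

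Of 9 measured genes reported downstream of the C group, 2 rose in the AGO2 knockout, 2 rose in the ANKRD52 knockout, and 0 rose and 1 fell in the double knockout (list medians -0.01, 0.25 and -0.15). Over all genes 6.10%, 13.7% and 43.0% were called in either direction. The microRNA processing gene DICER1 rose by 0.77 and 0.92 in the AGO2 and ANKRD52 knockouts and had 0.04 in the double, per the authors' deposited tables (adjusted p = 3.90e-13, 2.55e-19 and 0.769). The semaphorin gene SEMA3C rose in the ANKRD52 knockout (2.03, adjusted p = 0.00508), and the receptor gene NRP1 in the AGO2 knockout (3.70, adjusted p = 0.00671), in the authors' deposited tables. TEAD2, TUBB3 and EZH2 passed in no knockout, with values from -0.19 to 0.31 in the authors' deposited tables. TCF7L2, the gene that fell, is also among the partners above.

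For group F, 3 of 9 reported target genes were measured. NR2F2, a nuclear receptor of veins and lymphatics, rose in the AGO2 knockout (0.72, adjusted p = 0.0428) and fell in the double knockout (-1.25, adjusted p = 1.64e-06), in the authors' deposited tables. Its value in the ANKRD52 knockout, 0.63, was close to that in the AGO2 knockout but did not pass (adjusted p = 0.0550, authors' edgeR test). EPHB4 and EFNB2 passed in none of the 3. Of the genes linked with SOX2 in stem cells 3 of 10 were measured, and 1 passed in 1 knockout: KLF4 fell in the ANKRD52 knockout (-0.67, adjusted p = 0.00113) in the authors' deposited table. Beside these lists, 6.10%, 13.7% and 43.0% of all genes were called in the AGO2, ANKRD52 and double knockouts.

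The labelled cell type was checked against its markers. Of 10 colon epithelial markers 8 had a row, with a summed implied level of 3318 CPM in parental cells, 3422 in the AGO2 knockout, 3184 with ANKRD52 lost and 8700 in the double knockout. In the double knockout 6 of the 8 rose, against 22.9% of all genes, among them KRT8 (1.53) and CDH1 (1.45) in the authors' deposited table. In the ANKRD52 knockout 2 of the 8 fell, EPCAM and CDH1, against 6.04% of all genes. Of 6 endothelial markers, which bear on SOX7 and SOX18, VWF and KDR had a row and summed to between 1.17 and 5.02 CPM over the groups, highest in the double knockout. There both rose, against 22.9% of all genes (VWF 2.25, adjusted p = 1.61e-11, and KDR 1.10, 0.0152, in the authors' deposited table). The fibroblast marker COL1A1 lay between 11.9 and 14.1 CPM. Of 5 blood markers 2 summed to between 2.65 and 9.70 CPM, LYZ rising and CD68 falling in the double knockout. The neural marker MAP2 had 19.9 CPM in parental cells and 139 in the double knockout, and 0 of 4 chondrocyte markers had a row. EPCAM (0.13, adjusted p = 0.596) and KRT20 (0.52, 0.317) did not pass in the double knockout in the authors' deposited table. The epithelial sum there was mostly KRT8, KRT18 and KRT19, with implied levels of 4412, 1811 and 1601 CPM. The 6 epithelial markers that rose, VWF, KDR, LYZ and MAP2 thus had the same direction as SOX4, SOX9 and SOX13 in the double knockout. SOX7 (-0.79) and SOX18 (-0.38), on which VWF and KDR bear, had the opposite one, as did SOX12 (-1.07) and the blood marker CD68 (-1.96). Implied parental levels of VWF, LYZ and VIL1 were only 0.530, 0.0788 and 0.0485 CPM. The part of these markers in the SOX results was not tested. In bulk RNA, a change in the share of cells that express a gene and a change in its RNA per cell cannot be told apart.

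The targeted genes fell where the labels place them, with an exception. In the authors' deposited tables AGO2 fell by 1.07 in the AGO2 knockout (adjusted p = 0.0477), CSNK1A1 fell by 2.42 and ANKRD52 fell by 0.65 in the double knockout. ANKRD52 RNA had 0.03 (adjusted p = 0.915) in the ANKRD52 knockout in the authors' deposited table, so for this group the RNA does not check the label. ANKRD52 RNA was also 1.80-fold higher in the AGO2 knockout (adjusted p = 8.78e-07 in the authors' deposited table).

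Promoter windows were searched for SOX12 and SOX13, which moved in opposite directions in the double knockout. These are the 250 bases before the RefSeq start (GRCh38.p14). The RefSeq window of SOX4 lies inside the SOX4 gene as GENCODE 29 places it and was not used, and SOX7, SOX9 and SOX18 were not searched. On both strands 5 motifs were looked for: CTTTGAT (TCF/LEF), ATTGTT (SOX), CACCTG (an E-box of ZEB and SNAI factors), CCAAT and TATAAA. SOX12 held 1 copy of CCAAT, and SOX13 held none of the 5 motifs. CCAAT occurred in 32.0% of 35116 promoter windows of this length, and CTTTGAT, which neither gene held, in 2.26%. The GC content was 60.8% for SOX13 and 79.2% for SOX12, beside a median of 58.0%. The window of SOX12 is shown on the plus strand, with its CCAAT, which reads ATTGG here because it lies on the other strand, in capitals.
SOX12, chr20:325302-325551: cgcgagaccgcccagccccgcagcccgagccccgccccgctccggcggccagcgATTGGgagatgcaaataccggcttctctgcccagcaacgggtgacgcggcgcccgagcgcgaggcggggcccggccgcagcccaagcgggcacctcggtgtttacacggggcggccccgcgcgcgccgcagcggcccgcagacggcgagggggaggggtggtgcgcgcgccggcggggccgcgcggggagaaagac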

How the data were processed

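Stranded polyA libraries were read with a kit of 75 cycles, per the labels. TopHat2 (2.0.12), featureCounts (1.4.6), edgeR (3.8.6) and build hg19 appear in the submitters' processing notes, with no roles given. The authors deposited edgeR output with, for each gene, a log2 fold change, the mean log2 CPM, a likelihood ratio score, its p-value and the adjusted p-value. No value per library was used, so depth is unknown. For all 12756 genes the p-values equalled chi-square tails with 1 degree of freedom, and the adjusted ones followed Benjamini and Hochberg. Genes were called at an adjusted p under 0.05.

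An approximate standard error was taken as the size of the log2 fold change divided by the root of its likelihood ratio. Knockouts were compared by subtracting log2 fold changes. The variance of that difference was the average of the squared errors, the test was normal, and p-values were adjusted over 11876 of the 11877 genes whose mean log2 CPM reached 1, since 1 had no standard error. Tested on simulated data for the double against the ANKRD52 knockout over 11876 genes, this called 61.0% of differences of 0.5, 96.0% of differences of 1 and 0.0771% of unchanged genes, taking these errors as given. The design's provision for counts was not needed.

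The SOX genes, gene lists and microRNAs were chosen with earlier results of these data known. Named were the SOX genes, list members by smallest p (up to 4 a list and comparison; others illustrate a count and were chosen after their values were seen), the targeted genes, and the nearest patterns to SOX4 and SOX9. Some matching sites are not reported here. Coordinates are GRCh38, not the authors' build. The work used pandas 2.3.3, numpy 2.4.6, matplotlib 3.10.9 and scipy 1.17.1 in Python 3.11.15.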

Additional observations from a re-analysis of the deposited data

How the results depend on the processing

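Across 33 settings of the 6 counts of SOX genes, 22 stayed within 1.5 times and 11 fell. For the AGO2 knockout the count of 1 became 0 at an adjusted p under 0.01, with the F distribution and with Bonferroni adjustment (2 at the authors' unadjusted p under 0.05). With the F distribution 0 of all genes passed there (1834 at an unadjusted p under 0.05), against 778 by the authors' edgeR test. An adjusted p under 0.01 left 274 of all genes there and Bonferroni adjustment 76. For the ANKRD52 knockout the count of 1 became 0 with the F distribution and with Bonferroni adjustment (1 at the authors' unadjusted p under 0.05). Over all genes these settings left 3 and 234, against 1742. For the double knockout the count of 5 became 3 at an adjusted p under 0.01, with the F distribution and with Bonferroni adjustment, which left 4053, 3784 and 1717 of all genes, against 5486. Between the ANKRD52 and AGO2 knockouts the count of 2 became 1 at an adjusted p under 0.01, and 0 with the sum of both squared errors as variance or with the t distribution. Over all genes the adjusted p under 0.01 left 525, and those last settings 94 and 0, against 1120. Of 180 settings for single genes, 162 kept their side of the threshold, 18 lost it and 0 changed sign. Centring on the median of all genes and a filter on mean log2 CPM ended no call among the genes tested. The number lost follows from stricter thresholds or wider errors by construction. No paired analysis was possible because the tables hold no values per library, and for the same reason no replicate could be left out.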

Other observations

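The genes whose 3 log2 fold changes lay nearest to those of SOX4 and SOX9 were looked up among the 11876 other genes whose mean log2 CPM reached 1, by Euclidean distance over the 3 comparisons, which share the parental libraries. For SOX4 these were the potassium channel gene KCNH8 (distance 0.139), the BCL2 family member BMF (0.227) and the metalloprotease gene ADAMTS7 (0.307), and 1 gene lay within 0.2. KCNH8 had -1.06, 0.04 and 0.72 in the AGO2, ANKRD52 and double knockouts in the authors' deposited tables, beside -1.05, 0.18 and 0.76 for SOX4. For SOX9 they were the chloride channel gene ANO1 (0.0926), LZTS1 (0.0992) and the transcription regulator LMO2 (0.106), and 7 genes lay within 0.2. ANO1 had 0.21, 0.74 and 1.54 in the authors' deposited tables, beside 0.13, 0.71 and 1.57 for SOX9. In the authors' edgeR test ANO1 did not pass in the ANKRD52 knockout (adjusted p = 0.136), nor KCNH8 in the double knockout (0.0606). The approximate standard errors of ANO1 and KCNH8, with medians of 0.34 and 0.33 over the comparisons, were larger than their distances to SOX9 and SOX4.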
